A study of Mus musculus with 4 samples.

Results

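Neutrophils, eosinophils and mast cells are relatives of the macrophage that arise from shared bone marrow progenitors. The genes examined were 30 lineage genes of these cells, and they were chosen by name. There were 14 neutrophil genes, 5 eosinophil genes and 11 mast cell genes, set beside 21887 protein-coding genes in all. A gene was called marked when a deposited peak overlapped it or lay within 1000 bp of it. In the RefSeq table used, 29 of the 30 were protein-coding and Tpsab1 was listed as a transcribed pseudogene.

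The libraries came from chromatin immunoprecipitation with sequencing, with antibodies against H3K4me3 or H3K9me3, on peritoneal macrophages of 8-week-old C57BL/6 mice. The cells were elicited with thioglycollate broth and cultured in dishes with serum. Each mark was mapped in cells of Sun-/- mice and in cells of wild-type (WT) mice, with 1 library for each. The labels name neither the Sun gene removed nor the allele, and do not say how many animals each library holds. After duplicate removal the libraries held 26748289 to 29681491 tags. With 1 library per mark and genotype there was no test between genotypes, and every interval given is a 95% interval for counting error only.

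H3K4me3 is found at the starts of active genes and of genes held ready for use, whereas H3K9me3 is typical of silenced chromatin. Neutrophil granule proteins are made in waves during maturation in the marrow, primary granules first and gelatinase granules last. Mast cells of the peritoneal cavity store histamine, proteases and heparin, and are armed by the high-affinity IgE receptor. Thioglycollate draws neutrophils and eosinophils into the cavity before monocytes replace them. In a bulk library a strong mark in few cells and a weak mark in many cells cannot be told apart.

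The promoters of these genes fell into contrasting kinds, shown here by the reference sequence around the start of 6 of them. Gata2 and Kit carried the mark over a start in both genotypes, S100a8, Camp and Hdc in the Sun-/- library alone, and Elane in neither library. Each sequence runs 5′ to 3′ from 250 bases before the start to 50 bases after it, is from RefSeq on GRCm38.p6, the assembly also called mm10, and has its CpG dinucleotides in capitals.
Gata2, first start, promoter (chr6:88193641-88193940, plus strand): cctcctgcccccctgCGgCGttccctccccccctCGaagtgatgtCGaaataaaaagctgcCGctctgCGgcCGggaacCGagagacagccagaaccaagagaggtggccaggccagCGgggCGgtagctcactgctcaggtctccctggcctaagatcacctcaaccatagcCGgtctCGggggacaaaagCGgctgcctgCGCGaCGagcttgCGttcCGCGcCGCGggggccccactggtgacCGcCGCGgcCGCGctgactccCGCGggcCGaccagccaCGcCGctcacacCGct
Kit promoter (chr5:75574737-75575036, plus strand): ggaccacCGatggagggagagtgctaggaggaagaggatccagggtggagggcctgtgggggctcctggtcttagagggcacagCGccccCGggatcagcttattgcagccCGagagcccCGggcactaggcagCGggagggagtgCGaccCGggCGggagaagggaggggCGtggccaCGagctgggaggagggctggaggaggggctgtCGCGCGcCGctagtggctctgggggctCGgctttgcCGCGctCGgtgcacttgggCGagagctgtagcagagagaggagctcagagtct
S100a8 promoter (chr3:90668821-90669120, plus strand): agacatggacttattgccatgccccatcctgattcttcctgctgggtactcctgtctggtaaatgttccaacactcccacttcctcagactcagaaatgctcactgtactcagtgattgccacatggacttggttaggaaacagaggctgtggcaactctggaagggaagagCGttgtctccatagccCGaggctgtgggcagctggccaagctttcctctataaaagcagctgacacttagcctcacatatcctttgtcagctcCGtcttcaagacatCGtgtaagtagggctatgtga
Camp promoter (chr9:109849407-109849706, minus strand): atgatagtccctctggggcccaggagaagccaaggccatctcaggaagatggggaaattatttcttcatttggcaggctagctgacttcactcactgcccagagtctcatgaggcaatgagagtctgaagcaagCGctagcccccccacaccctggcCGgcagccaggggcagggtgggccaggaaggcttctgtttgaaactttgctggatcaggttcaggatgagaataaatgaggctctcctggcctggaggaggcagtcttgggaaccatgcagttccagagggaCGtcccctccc
Hdc promoter (chr2:126618629-126618928, minus strand): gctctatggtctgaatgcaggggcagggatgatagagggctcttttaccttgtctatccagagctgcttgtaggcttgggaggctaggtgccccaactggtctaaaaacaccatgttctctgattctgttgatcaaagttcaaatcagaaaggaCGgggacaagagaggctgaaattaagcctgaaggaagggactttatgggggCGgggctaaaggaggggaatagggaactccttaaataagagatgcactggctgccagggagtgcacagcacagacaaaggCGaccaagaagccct
Elane promoter (chr10:79886062-79886361, plus strand): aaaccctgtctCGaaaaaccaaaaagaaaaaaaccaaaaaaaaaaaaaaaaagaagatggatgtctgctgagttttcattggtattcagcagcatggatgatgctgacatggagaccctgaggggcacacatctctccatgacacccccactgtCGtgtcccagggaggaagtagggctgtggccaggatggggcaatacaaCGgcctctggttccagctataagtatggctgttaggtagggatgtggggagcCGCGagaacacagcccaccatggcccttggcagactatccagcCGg
The first Gata2 promoter holds 32 CpGs and that of Kit 20, against 4 for S100a8, 3 for Camp, 3 for Hdc and 6 for Elane. Promoter sequences were matched for 25 members. Mmp9, Cebpe, Prg2, Tpsb2 and Tpsab1 were not matched, and their starts were not assigned.

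H3K4me3 was sparse over the lineage genes. In the Sun-/- library 8 of the 30 members were marked, where 68.7% of all protein-coding genes were. In the WT library 10 of the 30 were marked, where 70.2% of all protein-coding genes were. Mmp9, Cebpe, Siglecf, Gata2, Kit and Hdc were marked in both genotypes, that is 6 of 30 against 67.3% of all genes. S100a8 and Camp were marked in Sun-/- alone, against 1.43% of all genes. Mpo, Mmp8, Il5ra and Tpsab1 were marked in WT alone, against 2.93% of all genes. The other 18 members had no H3K4me3 peak in either library.

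**Figure D1:**
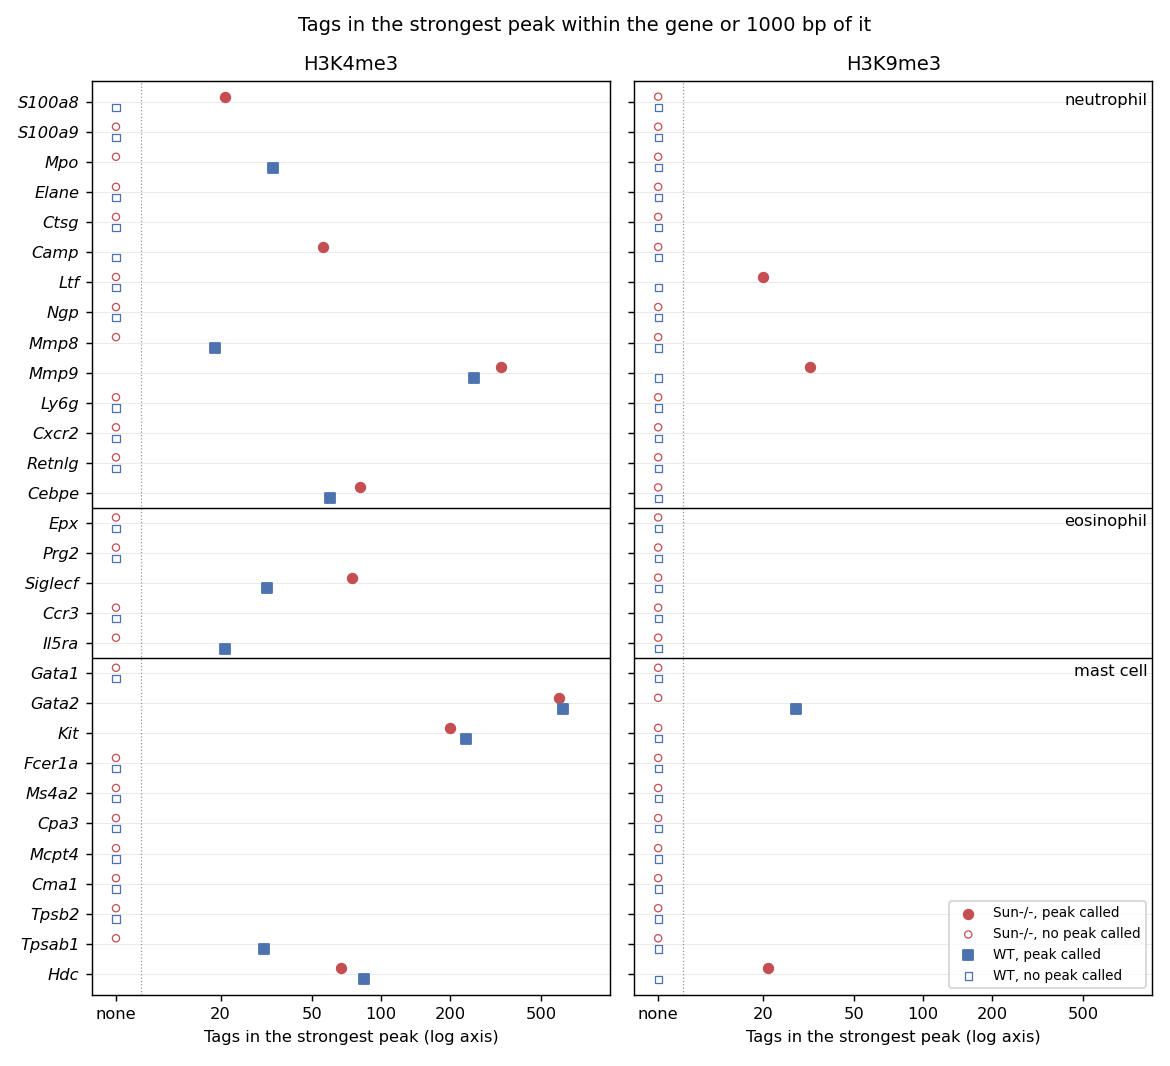
Tags in the strongest H3K4me3 (left) and H3K9me3 (right) peak of each member, on a log axis, with circles for Sun-/- and squares for WT. Open symbols at "none" stand for no called peak. Gata2 leads with 596 tags in Sun-/- and 623 in WT, and most members have no peak of either mark.

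Most marked members had fewer tags in their strongest peak than the median marked gene, clearly so in WT but only by a small majority in Sun-/-. The weakest H3K4me3 peaks of either list held 17 tags, and the lowest score was 50, where the score is -10 times log10 of the caller's p-value. A member without a peak is therefore below the caller's limit and not shown to be unmarked. Over all marked protein-coding genes the strongest peak held a median of 185 tags in Sun-/- and 263 in WT. Of the 8 marked members 3 lay above that median in Sun-/-, namely Mmp9, Gata2 and Kit. In WT 1 of 10 did, namely Gata2. With a score of at least 100, the count was 5 of 30 in Sun-/- and 4 of 30 in WT, where 62.9% of all genes had such a peak in Sun-/- and 65.8% in WT.

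Gata2, a transcription factor gene of blood progenitors and mast cells, had the most tags of the 30. In Sun-/- a peak of 1608 bp over its first start held 192 tags (interval 166 to 221), and the WT peak there of 1507 bp held 205 tags (178 to 235). Over the second start a domain of 5557 bp held 596 tags (549 to 646) in Sun-/-, and one of 4596 bp held 623 tags (575 to 674) in WT. A further peak of 72 tags inside the gene was called in Sun-/- alone. The domain over the second start outranked 98.8% of the Sun-/- peaks by tags but only 21.2% by score, and in WT it outranked 96.7% by tags and 47.6% by score. The caller takes the background for each score from the surroundings of the peak. The long noncoding RNA gene Gm38708 overlaps this region, and tags of its chromatin cannot be told apart from those of Gata2. Gata1, the related factor of eosinophils, mast cells and red cells, had no peak, and its nearest H3K4me3 peak lay 11370 bp away in Sun-/- and 10736 bp away in WT.

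Kit, the receptor for stem cell factor that mast cells keep through life, had the highest score of the members. Its peak over the start held 201 tags (174 to 231) in Sun-/- and 236 tags (207 to 268) in WT. The score was 627.84 in Sun-/- and 666.19 in WT, and the enrichment over the caller's background was 8.08-fold in Sun-/- and 6.88-fold in WT. By score the Kit peak outranked 88.0% of all H3K4me3 peaks in Sun-/- and 80.8% in WT.

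Hdc, which encodes the enzyme that makes histamine, was marked mainly inside the gene. The interior peak held 67 tags (51.9 to 85.1) in Sun-/- and 84 tags (67.0 to 104) in WT. Sun-/- had 2 more peaks, a second interior one of 55 tags and one over the start with 38 tags (26.9 to 52.2) and a score of 56.31. No WT peak covered that start. The remaining mast cell genes were nearly bare. Fcer1a and Ms4a2, chains of the high-affinity IgE receptor, the carboxypeptidase gene Cpa3, the chymase genes Mcpt4 and Cma1 and the tryptase gene Tpsb2 had no H3K4me3 peak in either library. Tpsab1, another tryptase gene, had a peak of 31 tags (21.1 to 44.0) in WT alone. It lay over a boundary of the gene, which may be the start or the far end, as the start was not assigned. The protease cluster from Cma1 to Ctsg on chromosome 14, 55941451 to 56102574, spans 161 kb and 8 protein-coding genes. It held 0 peaks of either mark in each of the 4 libraries.

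Among the neutrophil genes, the transcription factor gene Cebpe and the gelatinase gene Mmp9 were marked in both genotypes. Cebpe, which drives the secondary granule genes, had a peak with 81 tags (64.3 to 101) in Sun-/- and 60 tags (45.8 to 77.2) in WT. In both it lay over a boundary of the gene. The start of Cebpe was not assigned, so this boundary may be the start or the far end. Mmp9, made by macrophages as well as neutrophils, had a wide peak within its listed gene span on chromosome 2. Its start was not assigned, so whether the peak lies over a start is not known. The peak covered 3837 bp with 335 tags (300.1 to 373) in Sun-/-, and 2635 bp with 254 tags (224 to 287) in WT. Its enrichment was low in both, at 3.69-fold in Sun-/- and 3.19-fold in WT, where the median peak had 7.03-fold in Sun-/- and 7.26-fold in WT.

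The other neutrophil granule and cytosol genes with a peak had it in 1 genotype alone. Camp, the cathelicidin gene, had a peak of 56 tags (42.3 to 72.7) over its start in Sun-/- with a score of 157.13. The nearest WT peak to it lay 14992 bp away. S100a8, which encodes a calcium-binding protein abundant in neutrophil cytosol, had 21 tags (13 to 32.1) over its start in Sun-/-, and its score of 50.25 was just above the limit. Its partner gene S100a9 had no peak in either library. Mpo, the myeloperoxidase gene, had 34 tags (23.5 to 47.5) in WT, at least 8436 bp inside the gene. Mmp8, the neutrophil collagenase gene, had 19 tags (11.4 to 29.7) in WT at a score of 51.88. That peak ended 824 bp before the start, inside the window, and also overlapped the long noncoding RNA gene Gm31751. The nearest H3K4me3 peak outside the window was that near Elane, 2466 bp away in WT, with 171 tags.

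No H3K4me3 peak was called in either library at the other 8 neutrophil genes. They were S100a9, the elastase gene Elane, the cathepsin G gene Ctsg, the lactoferrin gene Ltf, Ngp, the surface marker gene Ly6g, the chemokine receptor gene Cxcr2 and the resistin-like gene Retnlg. Of the eosinophil genes, the peroxidase gene Epx, the major basic protein gene Prg2 and the eotaxin receptor gene Ccr3 had none either. Over the 18 members without a peak, the nearest H3K4me3 peak lay a median of 28012 bp away in Sun-/- and 32924 bp away in WT. The distance ran to 198957 bp in Sun-/- and 198915 bp in WT, both for Ctsg.

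The eosinophil genes with a peak had it inside the gene. Siglecf, a sialic acid receptor gene of eosinophils and alveolar macrophages, had 75 tags (59.0 to 94.0) over 1415 bp in Sun-/- and 32 tags (21.9 to 45.2) over 561 bp in WT. The summit lay 4088 bp from the start in Sun-/- and 4033 bp in WT. Tags per kb were 53.0 in Sun-/- and 57.0 in WT, so the difference in tags went with a difference in called width. Il5ra, the interleukin 5 receptor gene, had 21 tags (13 to 32.1) in WT at least 22961 bp inside the gene, with a score of 56.26. None of the 4 eosinophil genes with a known start had H3K4me3 over it.

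**Figure D2:**
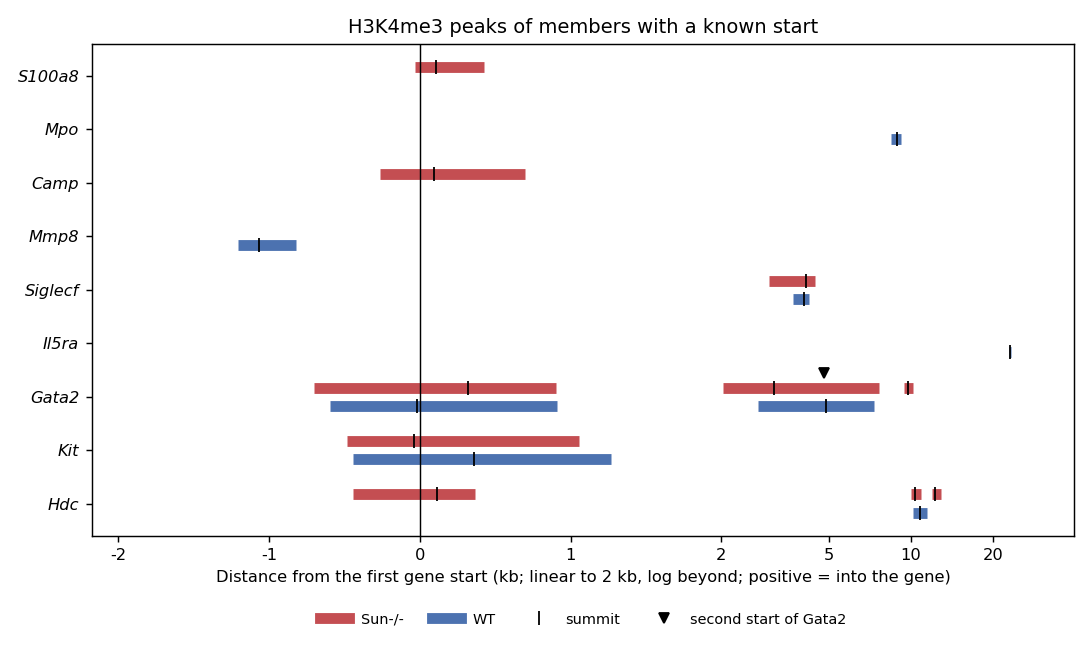
H3K4me3 peaks of the 9 marked members with a known start, as bars from peak start to end, with Sun-/- above WT and a tick at each summit. The axis is distance from the first start in kb, linear to 2 kb and on a log scale beyond. Bars over 0 in both genotypes are those of Gata2 and Kit, and S100a8, Camp and Hdc have one in Sun-/- alone.

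Where the start was known, 5 of 25 members had H3K4me3 over it in Sun-/- and 2 of 25 in WT. Of all protein-coding genes with a promoter entry, 54.6% did in Sun-/- and 58.9% in WT. The members had a median of 3 CpGs per promoter, against 15 over all 17492 genes with an entry. Of the 25 members, 20 had at most 4 CpGs, and in all genes of that class 5.57% carried H3K4me3 over a start in Sun-/- and 6.86% in WT. The 20 members had 3 covered starts in Sun-/- and 0 in WT. Elane, Ctsg and Epx, with 5 to 9 CpGs, were uncovered in both, where 31.5% of such genes were covered in Sun-/- and 36.5% in WT. No member fell in the class of 10 to 19 CpGs, where 71.2% were covered in Sun-/- and 78.2% in WT. Gata2 and Kit, with 20 or more, were covered in both, as were 88.3% of such genes in Sun-/- and 92.9% in WT.

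**Figure D3:**
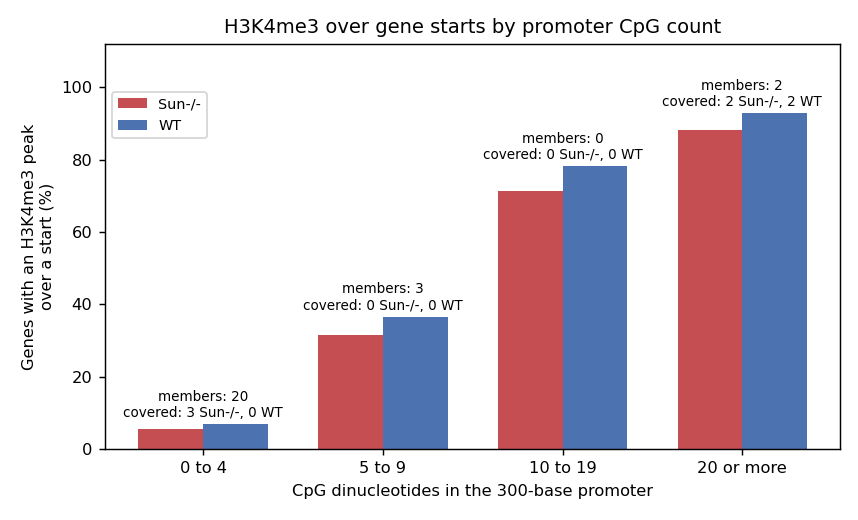
Share of all protein-coding genes with an H3K4me3 peak over a start, in %, by the number of CpGs in the promoter, with Sun-/- left of WT in each pair of bars. The text above each pair gives the number of member genes in the class and how many were covered. The lowest class has 5.57% in Sun-/- and 6.86% in WT, and the highest 88.3% in Sun-/- and 92.9% in WT.

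Macrophage genes were marked in both libraries, some of them at promoters with few CpGs. Of the 12 macrophage identity genes, 11 were marked in Sun-/- and 10 in WT. Over all protein-coding genes 68.7% were marked in Sun-/- and 70.2% in WT. For the factor gene Spi1, which encodes PU.1, the strongest peak held 503 tags in Sun-/- and 725 in WT. These were different peaks, at 91081556 to 91086498 on chromosome 2 in Sun-/- and at 91095869 to 91099798 in WT. The lysosomal gene Cd68 had 256 tags in Sun-/- and 433 in WT, and the galectin gene Lgals3 had 195 in Sun-/- and 376 in WT. At Cd68 and Lgals3 the WT peak was called wider, so the counts are not over the same bases. Of the 4 with at most 4 CpGs, Cd68, Lyz2 and Fcgr1 had a peak over the start in both genotypes, with 153 to 256 tags in Sun-/- and 230 to 433 in WT. The fourth, Ccr2, had no peak in either library.

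Regulators that granulocytes share with the other marrow lineages were all marked. All 13 myeloid progenitor regulator genes had H3K4me3 in both genotypes, where 67.3% of all protein-coding genes did. The weakest, Gfi1b, had 43 tags at a score of 50.05 in Sun-/- and 41 tags at 58.85 in WT, near the lowest score called. The factor gene Cebpa led with 937 tags in Sun-/- and 1391 in WT. Irf8 had 637 tags in Sun-/- and 1014 in WT, and Cebpb had 527 in Sun-/- and 751 in WT. Klf4 had 2 peaks in Sun-/-, the stronger with 413 tags at 55529555 to 55532024 on chromosome 4. In WT it had 1 wider peak of 965 tags at 55529426 to 55534260, so the 2 counts are not over the same bases. The strongest peaks of the 13 regulators had a median of 447 tags in Sun-/- and 674 in WT, while those of the marked lineage genes had 78 in Sun-/- and 47 in WT. Of their promoters with an entry, 0 had 4 or fewer CpGs, so gene role and CpG count cannot be told apart here.

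Further genes of the same lineages were marked at shares from 26.7% to 62.5%. These lie below the shares over all protein-coding genes, 68.7% in Sun-/- and 70.2% in WT. Of 15 further neutrophil genes, 4 were marked in Sun-/- and 7 in WT. Csf3r, the granulocyte colony-stimulating factor receptor gene, had 240 tags in Sun-/- and 250 in WT, the metalloproteinase gene Mmp25 had 162 in Sun-/- and 204 in WT, and Lrg1 had 149 in Sun-/- and 199 in WT. Prtn3, the proteinase 3 gene beside Elane, had 171 tags in WT alone, in the same peak that was given above as 2466 bp from Elane. No peak covered the start of Prtn3 or of Lrg1 in either library. Lcn2, which encodes an iron-withholding protein that macrophages also make, had 210 tags in Sun-/- alone, although the nearest WT peak lay 1764 bp outside the gene and held 321 tags. Of 6 further eosinophil genes, Csf2rb2 had 217 tags in Sun-/- and 281 in WT, the lipoxygenase gene Alox15 had 97 in Sun-/- and 62 in WT, and the ribonuclease genes Ear1, Ear2 and Ear6 had no peak in either library. Of 16 further mast cell and basophil genes, 9 were marked in Sun-/- and 10 in WT, and the leukotriene synthase gene Ltc4s had 340 tags in Sun-/- and 411 in WT. The factor gene Mitf had 340 tags in Sun-/- and 389 in WT, and Fcer1g had 275 in Sun-/- and 400 in WT. The prostaglandin synthase gene Hpgds had 40 tags in Sun-/- and 90 in WT, where its strongest peak was called wider. Fcer1g encodes the Fc receptor chain shared by macrophages and mast cells. The protease genes Mcpt1, Mcpt2, Mcpt8, Mcpt9 and Prss34 and the receptor gene Mrgprb2 had no peak.

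**Figure D4:**
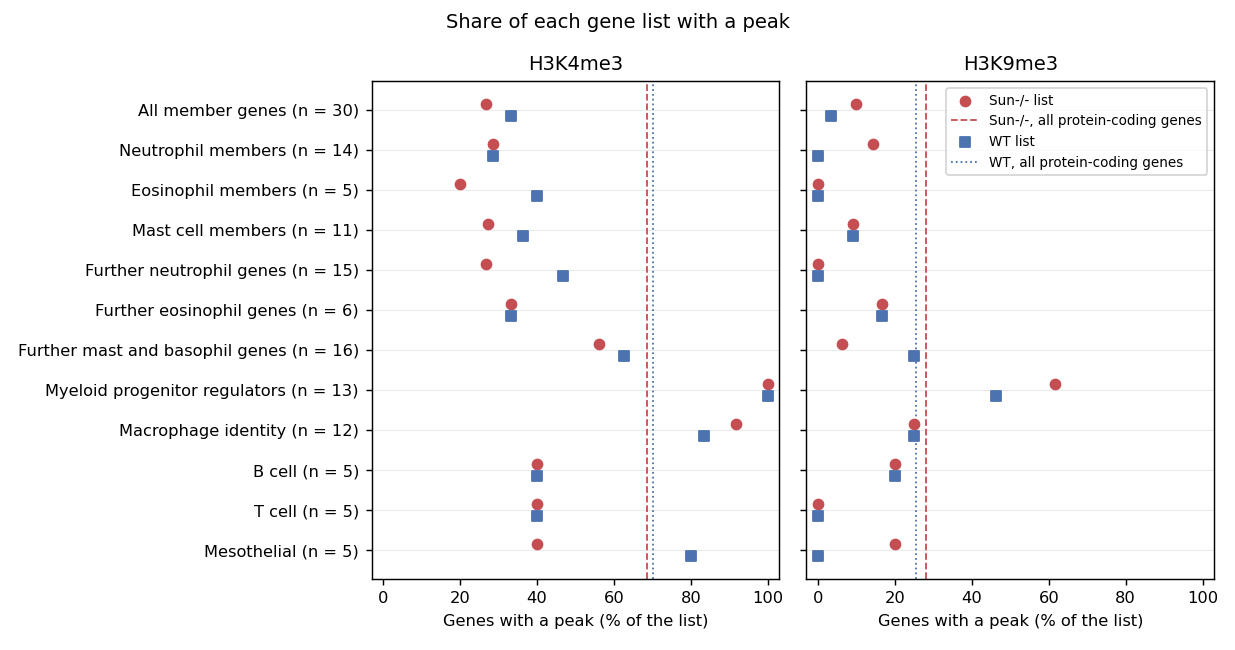
Share of genes with a peak in each list, in % of the list, for H3K4me3 (left) and H3K9me3 (right), with circles for Sun-/- and squares for WT. The vertical lines give the share over all protein-coding genes, at 68.7% in Sun-/- and 70.2% in WT for H3K4me3. For H3K4me3 the member lists lie left of those lines, and the macrophage and progenitor lists lie right of them.

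Genes that mark other cell types also had peaks in these libraries. H3K4me3 was called at 2 of 5 B cell genes and 2 of 5 T cell genes in each genotype. The share over all protein-coding genes was 68.7% in Sun-/- and 70.2% in WT. The B cell receptor gene Cd79a had 256 tags in Sun-/- and 354 in WT, in a peak outside the gene, at 360 bp in Sun-/- and 334 bp in WT. The strongest peak of the B cell factor gene Pax5 held 170 tags in Sun-/- and 242 in WT, and a peak covered its start in WT alone. The strongest peak of the coreceptor gene Cd4 held 216 tags in Sun-/- and 277 in WT and lay outside the gene, at 263 bp in Sun-/- and 309 bp in WT. Cd3d, which encodes a chain of the T cell receptor complex, had 57 tags in Sun-/- and 82 in WT, but no peak covered its start in either library. H3K4me3 was called at 2 of 5 mesothelial genes in Sun-/- and 4 of 5 in WT. The factor gene Wt1 had 207 tags in Sun-/- and 321 in WT, and the keratin gene Krt18 had 54 in Sun-/- and 67 in WT, while Upk3b had 101 tags and Krt19 33 tags in WT alone. The B cell genes Ms4a1 and Cd79b and the T cell genes Cd3e, Cd3g and Cd8a had no peak. For the lineages examined, the strongest peak held 0 to 335 tags in Sun-/- and 0 to 254 in WT at neutrophil genes. At eosinophil genes it held 0 to 75 tags in Sun-/- and 0 to 32 in WT, and at mast cell genes 0 to 596 in Sun-/- and 0 to 623 in WT. The part of other cells in these peaks was not tested.

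At the member peaks that could be paired between genotypes, the ratio of tag density lay between 0.00 and 0.58 on the log2 scale. A pair was a Sun-/- and a WT peak that overlapped each other alone, by at least 50% of each, with at least 50 tags in 1 of both. Of 17114 H3K4me3 pairs in all, 6 lay at members. Ratios are log2 of tags per kb, Sun-/- over WT, relative to the median pair, which was -0.19 when scaled to filtered tags and -0.09 when scaled to library totals.

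Cebpe had the highest ratio, 0.58 (interval 0.08 to 1.08), with 73.4 tags per kb in Sun-/- and 62.3 in WT, and 98.3% of all pairs lay below it. Its interval included 0 when the tags were scaled to filtered tags, at a ratio of 0.39, or to library totals, at 0.49. Hdc was at 0.45 (-0.03 to 0.93), with 70.5 tags per kb in Sun-/- and 65.1 in WT. Kit was at 0.26 (-0.02 to 0.54), with 131 tags per kb in Sun-/- and 138 in WT. Mmp9 was at 0.20 (-0.04 to 0.44), Gata2 at 0.15 (-0.14 to 0.44) over the first start and at 0.00 (-0.16 to 0.17) over the second. By tags per peak, without division by width, Mmp9 was at 0.88 (0.64 to 1.12), with 335 tags over 3837 bp in Sun-/- and 254 tags over 2635 bp in WT. On that measure Gata2 was at 0.38 (0.09 to 0.67) over the first start and at 0.41 (0.25 to 0.58) over the second, and Cebpe was at 0.91 (0.41 to 1.42). No member pair reached a 2-fold change, as 0.0409% of all pairs did upward and 0.0117% downward.

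**Figure D5:**
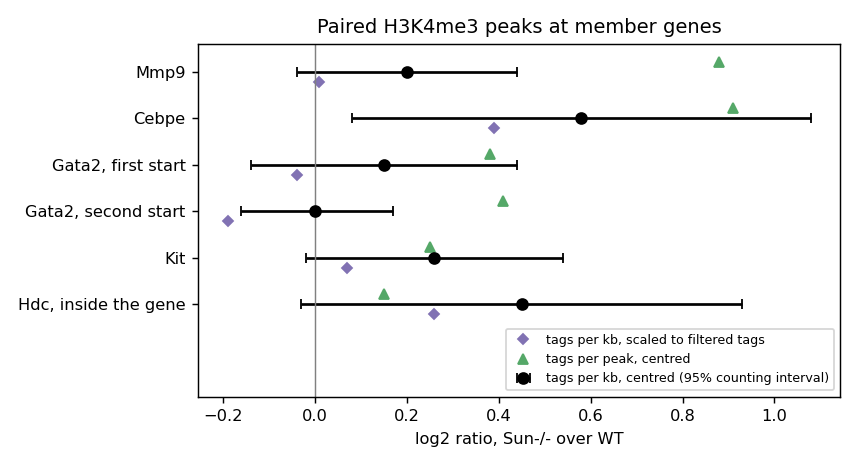
Log2 ratio, Sun-/- over WT, of the 6 paired H3K4me3 peaks at members. Black points are tags per kb relative to the median pair with 95% counting intervals, diamonds are tags per kb scaled to filtered tags, and triangles are tags per peak relative to the median pair. Of the intervals for tags per kb, that of Cebpe alone, 0.08 to 1.08, lies clear of 0.

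H3K9me3 was rarer still over these genes. In Sun-/- 3 of 30 members had a peak, against 28.1% of all protein-coding genes, and in WT 1 of 30 did, against 25.6%. The members were Ltf, Mmp9 and Hdc in Sun-/- and Gata2 in WT. None was marked in both genotypes, so the shares are 3 of 30 in Sun-/- alone and 1 of 30 in WT alone. Over all genes 16.9% were marked in both, 11.2% in Sun-/- alone and 8.74% in WT alone. The members had a median length of 6608 bp, against 17169 bp over all protein-coding genes, and the part of gene length in these counts was not tested. Each of these peaks held few tags, with 20 (12.2 to 30.9) at Ltf, 32 (21.9 to 45.2) at Mmp9, 21 (13 to 32.1) at Hdc and 28 (18.6 to 40.5) at Gata2. The scores were 50.62 to 73.02, and the lowest score in these lists was 50. The fragment length estimated by the caller for this mark was 71 bp in Sun-/- and 66 bp in WT, little more than the length of a 50 bp tag. Its part in the calling of these peaks was not tested.

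Of the 4 members with H3K9me3, 3 had H3K4me3 in the same library. Both marks were at Mmp9 and Hdc in Sun-/-, where 25.9% of all genes had both, and at Gata2 in WT, where 23.2% did. Most genes with H3K9me3 also had H3K4me3, namely 5665 of 6148 protein-coding genes in Sun-/- and 5082 of 5608 in WT. The members therefore show no excess of both marks. At Mmp9 the H3K9me3 peak began 100 bp beyond the H3K4me3 peak. At Gata2 it lay inside the H3K4me3 domain of the WT library, with its summit at -1630 bp from the second start. At Hdc the marks lay 4668 bp apart. Ltf had H3K9me3 alone, at 590 to 842 bp after its start. Genes such as Ly6g, Elane, Epx, Cpa3 and Fcer1a carried a called peak of neither mark.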

How the data were processed

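The authors deposited a peak list for each library. Per the file headers, MACS 1.4.2 made them with no control file, a p-value limit of 1.00e-05, at most 1 tag per position and a local background of up to 10000 bp. CASAVA 1.4, Bowtie 0.12.8, DiffBind and mm10 were named, without their roles, per the submitters' processing notes. Handling of tags from near-identical genes, such as those for tryptases or Ly6 proteins, was not given in the sources used here. For every peak the authors gave a tag count, a score equal to -10 times log10 of its p-value, a fold enrichment (a ratio), and, as other values, width and summit position in bp. Score and fold only rank, filter or describe peaks here.

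Genes and promoters came from RefSeq tables of GRCm38.p6. A gene was marked by a peak within 1000 bp. Tag counts have exact Poisson intervals and ratios exact conditional binomial intervals. The tags given for genes of the other lists are those of the strongest peak in each library, not scaled for width or depth. No test was run, because each group was 1 library. Every member with a peak is named, with up to 4 tag-rich genes of each other list, and genes named beyond that were chosen after their values were seen. A macrophage gene that this rule would name is not reported here. Members and lists were chosen with earlier results of these data known. The computation, tested on simulated data, used scipy 1.17.1, pandas 2.3.3, numpy 2.4.6 and Python 3.11.15, and the plots matplotlib 3.10.9. Alternatives covered the window, score, list length, gene part, neighbouring genes, overlap, pairing and scaling.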

Additional observations from a re-analysis of the deposited data

How the results depend on the processing

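No paired analysis was possible because each group was 1 library. Counts of marked members moved by more than 1.5 times under 2 settings. With a score of at least 100, H3K4me3 was at 5 members in Sun-/-, 4 in WT and 3 in both, and H3K9me3 at 0 in Sun-/- and 0 in WT. Within 1000 bp of a known start, which 25 members have, H3K4me3 was at 5 members in Sun-/-, 3 in WT and 2 in both, and H3K9me3 at 1 in Sun-/- and 0 in WT. Windows of 500 and 2500 bp, lists of equal length, peaks reaching no other protein-coding gene, and at least 50% of the peak inside the window left the counts within 1.5 times. The wider window added Elane for H3K4me3 in WT and S100a9 for H3K9me3 in Sun-/-, and lists of equal length gave 8 marked members in WT. Member pairs with an interval above 0 numbered 1, that of Cebpe, but 0 when scaled to filtered tags, 0 when scaled to library totals, 2 at 80% overlap and 4 by tags per peak. With a limit of at least 100 tags Cebpe was not among the pairs. The 1 pair above 0 was then Kit, at 0.28 (0.00 to 0.56). Scaled to filtered tags, 1 pair, Gata2 over the second start at -0.19, had an interval below 0. By tags per peak the same pair was at 0.41 (0.25 to 0.58), so its direction depended on the measure. With weakest peaks of 17 tags for H3K4me3, lower levels of the mark were not detectable at this depth.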

Other observations

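Short motifs were counted in the 28 promoter entries of the 25 matched members, on both strands. A match is a description of the reference sequence and no site of binding. For C/EBP factors the letters TTGCNNAA were searched, found in 10.2% of all 21263 promoter entries of protein-coding genes. It was in 6 of 13 neutrophil entries, those of S100a9, Ltf, Ngp, Mmp8, Ly6g and Retnlg, in 0 of 4 eosinophil entries, and in 1 of 11 mast cell entries, that of Fcer1a. The GATA letters AGATAA or TGATAA, found in 15.9% of all entries, were in 3 of 4 eosinophil entries, those of Siglecf, Ccr3 and Il5ra. They were in 4 of 11 mast cell entries, those of Fcer1a, Ms4a2, Cpa3 and Mcpt4, and in 2 of 13 neutrophil entries, those of S100a9 and Ltf. GAGGAA, the core of PU.1 sites, was in 9 of 13 neutrophil entries, 3 of 4 eosinophil entries and 4 of 11 mast cell entries, against 27.4% of all entries. Base composition differs between the members and all genes, with a median of 50.7% G and C per promoter in the members and 57.0% in all. None of the C/EBP or GATA matches lay in a promoter whose start carried H3K4me3 in either library. GAGGAA did, in the promoter of S100a8, covered in Sun-/- alone, and in that of Kit, covered in both genotypes. Few members had a covered start, and the same overlap over all promoters was not computed, so no link between motif and mark can be read from this.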
